A study of Macaca mulatta with 6 samples.

Results

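The splicing and RNA-binding factors described here were the genes whose probe sets met an annotation rule. The probe sets were those for which the platform annotation gave exactly 1 gene symbol beginning with HNRNP, HNRP, SRSF, SFRS, SF3A, SF3B, SNRP, U2AF or PRPF. The rule found 53 of 14132 named genes, on 122 of 52766 probe sets, and it used no measured value. A further 2 probe sets that carried 2 symbols were left out. The arrays measured RNA from serotonin neurons that had been cut by laser from the dorsal raphe nucleus of female rhesus macaques. Each of the 6 arrays was taken as 1 monkey, with 2 arrays per treatment. Steroid capsules had been placed under the skin for 1 month, and the groups received placebo, estrogen, or estrogen with progesterone. Ovx, the usual abbreviation for ovariectomized, appears in the placebo titles only, and the hormone titles name the treatment alone. Ages, doses and the number of captured cells were not found in the labels. In RNA from captured tissue, fewer cells of a type and less RNA per cell cannot be told apart.

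A pre-mRNA is spliced by the spliceosome, which assembles on each intron from small nuclear ribonucleoproteins (snRNPs) and many further proteins. Sm proteins form the ring around the spliceosomal small nuclear RNAs, U2AF marks the 3′ splice site, the SF3A and SF3B complexes belong to the U2 snRNP at the branch point, and several PRPF proteins build or remodel the U4/U6.U5 tri-snRNP. SR proteins (SRSF) and hnRNP proteins bind the transcript itself and promote or repress the use of splice sites, and in neurons they contribute to alternative splicing that is particular to brain.

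The 6 arrays fell into sets that differed in how far probe sets stood above the control probes, and these sets cut across 1 treatment group. The floor of an array was taken as the 95th percentile of its 59 bacterial and tag control probe sets, and it lay at signals of 30.0 to 74.9 on both estrogen arrays and estrogen with progesterone array 1, against 216 to 283 on both placebo arrays and estrogen with progesterone array 2. The share of all probe sets above the floor was 49.6% to 62.2% on the first 3 arrays, called high-signal below, and 28.7% to 37.3% on the other 3, called low-signal. The names refer to that share only, since the median signal of all probe sets was 49.0 to 73.8 on the high-signal arrays and 159.8 to 170.5 on the low-signal ones. Treatment and this share can therefore not be told apart for placebo against estrogen, and the group given both hormones holds 1 array of each kind.

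The labelled cell type was compared with marker genes. Of 6 serotonin markers with a named probe set, 4 exceeded the floor on every high-signal array and 2 on every low-signal array. TPH2, the enzyme that starts serotonin synthesis in brain, was above it on the estrogen arrays only, at signals of 54.0 and 63.2. Its signals under placebo (126 and 211) and on estrogen with progesterone array 2 (243) were higher, but lay under the higher floors of those arrays. On estrogen with progesterone array 1 it read 12.5. FEV, which drives the serotonin neuron programme, was above the floor on all 6 arrays. SLC6A4, the serotonin transporter, had no probe set that could be named. On the high-signal arrays all 6 astrocyte markers, all 3 oligodendrocyte markers and 6 of 8 microglia markers were above the floor. Summed astrocyte marker signals ranged from 15755 to 15923 under placebo, from 48006 to 49537 under estrogen and from 2696 to 51751 under both hormones. Summed oligodendrocyte signals ranged from 32988 to 47341, from 39709 to 54774 and from 2510 to 53696, and summed general neuron signals from 7742 to 12299, from 28414 to 30027 and from 2275 to 25408 in the same order. Summed serotonin marker signals were 1622 to 1703, 842 to 1552 and 1364 to 1972, those of microglia 2369.9 to 3328, 3556 to 3717 and 1895 to 4888, and those of endothelium 958 to 1311, 791 to 896 and 842 to 1288. No marker was listed at 0. The part of other cells in the splicing factor values was not tested.

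Transcripts of splicing factors were widely detected on the high-signal arrays. The number of member probe sets above the floor was 61 and 64 of 122 under placebo, 108 on each estrogen array, and 99 and 33 on the both-hormone arrays. Among all 24956 probe sets with 1 gene symbol the shares were 40.2% and 39.99%, 73.0% and 69.1%, and 60.5% and 27.8%. The member share exceeded the share of all named probe sets on 5 arrays, and estrogen with progesterone array 2 had 27.0% of members above the floor. On all 6 arrays 24 member probe sets were above it, 19.7% of members against 11.9% of named probe sets. On none were 8 above it. On all 3 high-signal arrays and none of the low-signal arrays 26 member probe sets were above it, 21.3% against 11.5%, and no member showed the opposite. These probe set shares count some genes more than once. By the brightest probe set of each gene tested below, 5 of 49 members were above it on the high-signal arrays only. That was 10.2% against 9.999% of all 9781 tested genes, so by gene the shares were close. On all 6 arrays 19 of the 49 were above it, 38.8% against 25.2%. The plot of detection by array shows the probe set shares on each array.

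**Figure D1:**
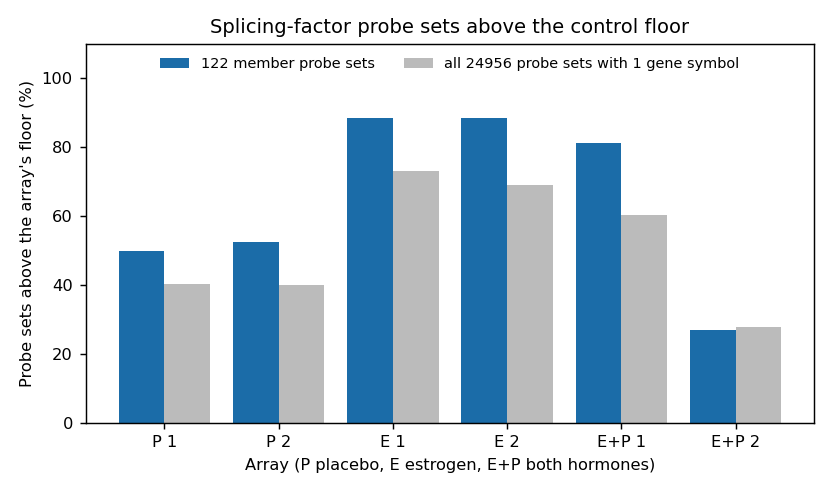
Share of probe sets above the floor of each array (percent), for the 122 splicing factor probe sets and for all 24956 probe sets with 1 gene symbol; 1 bar is 1 array. Member shares exceed the others on the first 5 arrays and lie near them, 27.0% against 27.8%, on estrogen with progesterone array 2.

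For tests, signals were put on the scale of log2(signal + 16) and quantile normalized, and the 26383 probe sets with a mean in the upper 50% were fitted with limma. Of the members, 97 probe sets of 49 genes were tested, and for every gene the brightest of these (by its mean over the arrays) was taken. HNRNPH2, SRSF8, U2AF1L4 and the older spelling HNRPA1 had no tested probe set. HNRNPA2B1, SRSF1, SRSF2, SRSF3 and SF3B1 had no probe set that met the rule and were not analysed here. The median signal of the 49 genes was 353 and 384 for the placebo arrays, 623 and 802 for the estrogen pair, and 689 and 256 for the both-hormone arrays, while the median over all 9781 tested genes stayed between 258 and 301. Estrogen with progesterone array 2 had the lowest normalized value for 28 of the 49 genes (57.1%, against 43.2% of all genes), and estrogen array 2 had the highest for 14 (28.6%, against 17.0%).

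**Figure D2:**
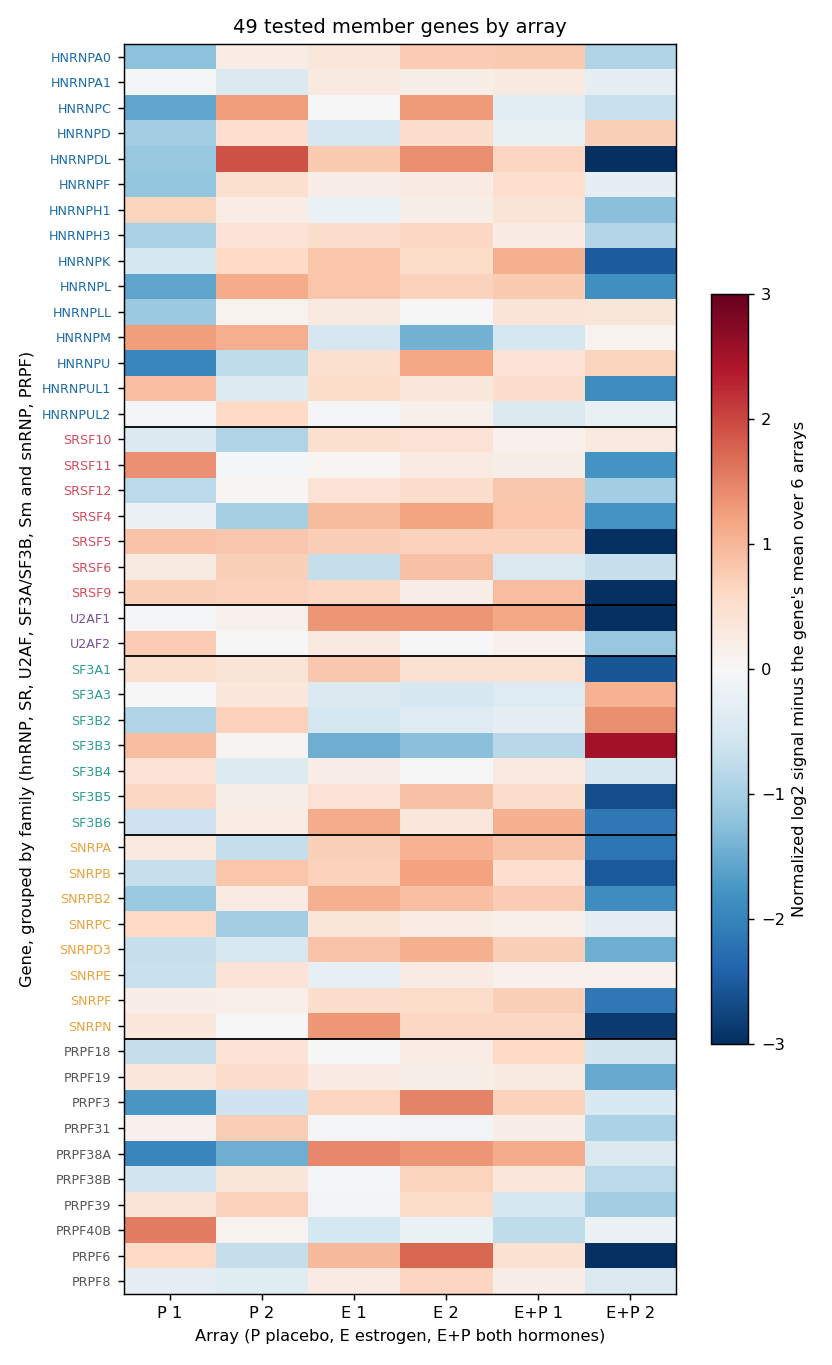
Normalized log2 value of each of the 49 splicing factor genes on each array, as the difference from that gene's mean over the 6 arrays; columns are arrays, rows are genes ordered by family, and the colour scale ends at a difference of 3 either way. Both estrogen arrays and estrogen with progesterone array 1 resemble each other, and estrogen with progesterone array 2 holds the lowest value for 28 genes.

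Between estrogen and placebo the Sm and snRNP proteins had the largest family median, and all 8 of them had a log2 difference above 0 (estrogen minus placebo, median 0.84, range 0.13 to 1.53). The hnRNP genes were above 0 for 12 of 15 (median 0.62), the PRPF genes for 6 of 10 (median 0.35), the SF3A and SF3B genes for 4 of 7 (median 0.10), and the SR protein genes for 3 of 7 (median -0.12). Over all 49 genes, 34 were above 0, which is 69.4% against 60.6% of all genes, and their median was 0.46 against 0.28. No member passed the test with limma and Benjamini-Hochberg adjustment over all probe sets, where 0% were called and 7.83% had an unadjusted p under 0.05. The smallest adjusted p of a member was 0.635. At an unadjusted p under 0.05 limma gave 3 member genes higher (3.68% of all genes) and 1 lower (1.24%). Both estrogen values lay above both placebo values for 18 members (30.6% of all genes) and below for 9 (19.8%). A fit with the signal class of the array as a covariate turned the member median to -0.87 and that of all genes to -0.50. In that fit 13 of 49 genes (26.5%, against 38.0% of all genes) and 2 of 8 Sm and snRNP genes were above 0. Without placebo array 1 the member median was no longer ahead of that of all genes, at 0.12 against 0.17. The shares above 0 were then close, at 57.1% against 56.5%. The hnRNP median was then -0.23 with 7 of 15 above 0, the PRPF median -0.17 with 4 of 10, and 7 of 8 Sm and snRNP genes were above 0.

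**Figure D3:**
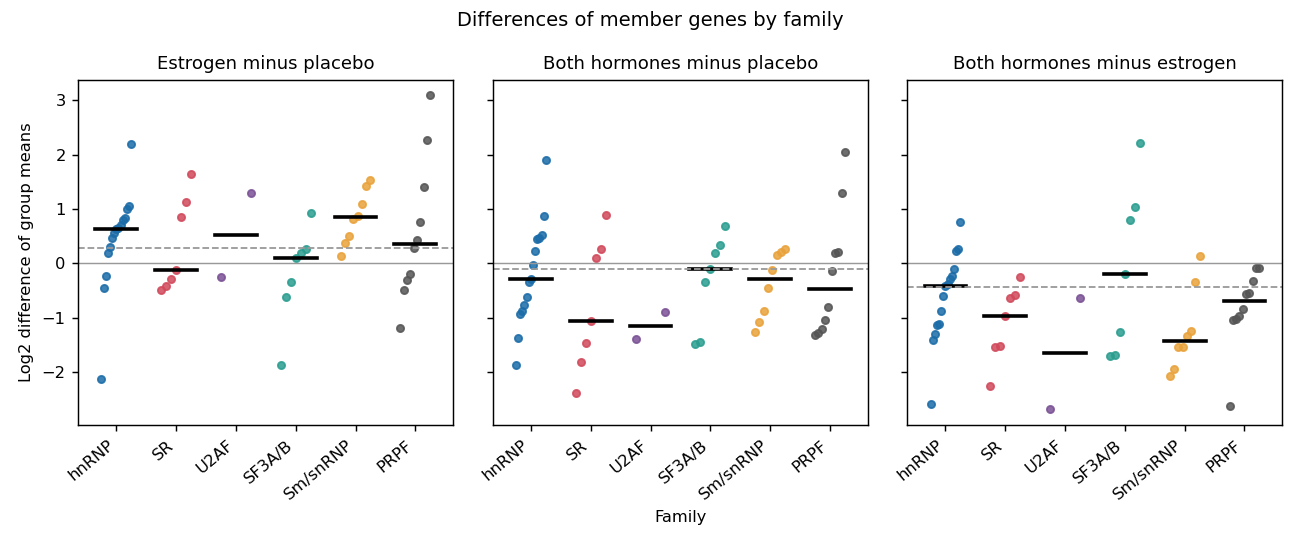
Log2 difference of each splicing factor gene in the 3 comparisons, by family; 1 point is 1 gene, black bars are family medians and the dashed line is the median of all 9781 genes. The 8 Sm and snRNP genes lie above 0 for estrogen minus placebo, and 42 of the 49 genes lie below 0 for both hormones minus estrogen.

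Among the transcript-binding hnRNP proteins, HNRNPU and HNRNPM stood furthest apart between estrogen and placebo. HNRNPU, a nuclear matrix-associated hnRNP that also takes part in chromatin organisation, had signals of 66.8 and 178 under placebo and 273 and 570.2 under estrogen (log2 difference 2.19 ± 0.85, SE, limma adjusted p = 0.635). Both placebo values were under the floor and both estrogen values above it. On the normalized scale the estrogen mean was at least 2.36-fold above the lowest level that counts as measured on the placebo arrays. Such bounds, all on the normalized scale, are given beside differences against a group under the floor throughout, where the raw signals also lay on average past that group's floor. Another HNRNPU probe set read 69.7 and 36.8 under placebo and 428 and 544 under estrogen (3.20 ± 0.95, at least 2.65-fold), again without overlap.

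HNRNPM, an hnRNP that promotes or represses exon use according to where it binds, had signals of 594 and 553 under placebo and 162 and 74.8 under estrogen (-2.14 ± 0.83, limma adjusted p = 0.635). The groups did not overlap on that probe set. Its other tested probe set read 139 and 12.6 under placebo and 206 and 634 under estrogen, a difference of 2.96 ± 0.99 (at least 2.26-fold), so the direction of HNRNPM depended on the probe set. HNRNPK, an hnRNP that binds C-rich stretches, read 608 and 1321 under placebo and 3812 and 2632 under estrogen (0.65 ± 1.16). After quantile normalization its groups overlapped. HNRNPA1, a widely studied repressor of splice sites, was measured by a probe set whose name marks it as possibly matching several transcripts, and it read 543 and 448 under placebo and 1306 and 1072 under estrogen (0.46 ± 0.81). HNRNPC, which binds runs of U, read 53.0 and 339 under placebo and 69.6 and 344 under estrogen (0.79 ± 1.06), so that the arrays of each group differed among themselves more than the groups did. Of the other hnRNP genes, HNRNPA0 (1.05), HNRNPL (1.004), HNRNPH3 (0.84), HNRNPDL (0.71), HNRNPLL (0.62), HNRNPF (0.56), HNRNPD (0.30) and HNRNPUL1 (0.18) had log2 differences above 0, and HNRNPUL2 (-0.24) and HNRNPH1 (-0.46) had differences below 0.

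The SR proteins, activators of splice sites, split between directions. SRSF4 read 370.1 and 263 under placebo and 1271 and 1407 under estrogen (1.65 ± 1.01, limma adjusted p = 0.679), and its groups did not overlap. SRSF10, which can repress splicing when dephosphorylated, read 156 and 107 under placebo and 143 and 159 under estrogen (1.13 ± 0.80, limma adjusted p = 0.708). Its raw signals overlapped and its normalized values did not. Its estrogen signals lay below the placebo floors of 216 and 221, so no bound is given, and the difference rested on the normalization. The same held for SRSF12, with a difference of 0.85. SRSF5 read 646 and 632 under placebo and 1163 and 1012 under estrogen, yet its normalized difference was -0.12. SRSF9 likewise read 1208 and 1233 under placebo and 2903 and 1748 under estrogen and had a normalized difference of -0.29. For both genes the sign thus rested on the normalization. SRSF6 (-0.41) and SRSF11 (-0.50) were also below 0. The 3 tested SRSF5 probe sets spanned -0.12 to 3.18 and the 2 of SRSF6 -0.41 to 0.10. The signs of SRSF5 and SRSF6 thus depended on the probe set.

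U2AF1, the small subunit that reads the AG of the 3′ splice site, had signals of 399.8 and 426 under placebo and 1880 and 1641 under estrogen, a difference of 1.28 ± 1.39. The groups did not overlap. U2AF2, the large subunit that binds the polypyrimidine tract, read 753 and 499.9 under placebo and 1053 and 752 under estrogen (-0.26 ± 0.86), with overlapping normalized values.

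Of the U2 components, SF3B3 was measured by a probe set that may match several transcripts, and it read 1035 and 625 under placebo and 228 and 309 under estrogen (-1.87 ± 1.12, limma adjusted p = 0.675). The placebo values were the higher ones. Another SF3B3 probe set had a difference of -0.19. SF3A1, the SF3A subunit whose protein contacts the U1 snRNP as well, read 608 and 580.0 under placebo and 1605 and 1036 under estrogen (0.19 ± 1.05), and its 7 tested probe sets spanned -0.08 to 2.53. SF3B6, the branch point protein p14, had a difference of 0.92, SF3B5 of 0.26, SF3B4 of 0.10, SF3B2 of -0.34 and SF3A3 of -0.61. On the brightest probe sets the subunits of these complexes did not share a direction. Other tested probe sets reached 2.95 for SF3B2, 0.94 for SF3A3 and -0.09 for SF3B5, so these signs depended on the probe set.

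The Sm and snRNP genes shared theirs. SNRPD3, a core Sm protein, read 132 and 154 under placebo and 229 and 309 under estrogen (1.53 ± 0.94, limma adjusted p = 0.679), at least 1.80-fold above the placebo bound. SNRPB2, the U2 snRNP protein B″, read 211 and 379 under placebo and 1029 and 802 under estrogen (1.42 ± 1.04). Neither gene overlapped between groups. SNRPN, the neuronal homologue of SNRPB, which is imprinted in human and mouse, read 6499 and 5987 under placebo and 14789 and 12850 under estrogen (0.81 ± 1.13), and another of its probe sets had a difference of 2.59. SNRPB, which encodes the Sm proteins B and B′, read 175 and 353 under placebo and 304 and 535 under estrogen (0.87 ± 1.11), with overlap. SNRPA, the U1 snRNP protein A, had a difference of 1.09, SNRPC, also of U1, of 0.50, and the core Sm proteins SNRPF and SNRPE of 0.37 and 0.13.

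Among the PRPF genes PRPF38A, a protein needed to activate the assembled spliceosome, had the largest fitted difference of the 49 members, against placebo values that were not measured above the floor. It read 27.4 and 46.7 under placebo and 319 and 297 under estrogen (3.09 ± 0.88, limma adjusted p = 0.635), at least 1.96-fold above the placebo bound, a smaller bound than that of HNRNPU. PRPF3, a U4/U6 protein of which mutations cause retinitis pigmentosa, read 45.7 and 128 under placebo and 166 and 447 under estrogen (2.26 ± 0.89, limma adjusted p = 0.635), at least 1.87-fold above the bound. Both genes were under the floor on both placebo arrays. PRPF6, a bridge within the tri-snRNP, had a difference of 1.41 without overlap. PRPF8, the U5 protein at the catalytic centre, read 391 and 370.2 under placebo and 794 and 1067 under estrogen (0.76 ± 0.81), also without overlap. PRPF19, a ubiquitin ligase of the spliceosome, read 565 and 643 under placebo and 1000 and 851 under estrogen, and its normalized difference was -0.20 ± 0.89. PRPF38B (0.42) and PRPF18 (0.27) were above 0. PRPF39 (-0.30), PRPF31 (-0.49) and PRPF40B (-1.19) were below it.

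Between both hormones and placebo the direction of the members, like that of all genes, depended on which array of the treated group was used. Of the 49 genes, 19 had a log2 difference above 0 (38.8%, against 46.2% of all genes), and the median was -0.34 against -0.10. By family 6 of 15 hnRNP, 3 of 7 SR protein, 0 of 2 U2AF, 3 of 7 SF3A and SF3B, 3 of 8 Sm and snRNP and 4 of 10 PRPF genes were above 0. No member passed the test with limma (0% of all probe sets, of which 3.3% had an unadjusted p under 0.05), and the smallest adjusted p was 0.992. At an unadjusted p under 0.05 limma gave 1 member gene higher (1.34% of all genes) and 0 lower (1.04%). The groups did not overlap, the treated arrays higher, for 5 members (11.7%) and, the treated arrays lower, for 7 (12.7%). Without estrogen with progesterone array 2 the member median was 0.43, against 0.31 for all genes. In that fit 34 members were above 0 (69.4%, against 62.6% of all genes), and all 6 family medians lay between 0.019 and 0.51. Without array 1 of that group the member median was -1.06, against -0.45, with 11 above 0 (22.4%, against 39.0%). Scaling each array to its median gave 0.36, against 0.33 for all genes, with 31 members above 0 (63.3%, against 66.7%).

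PRPF38A read 222 and 128 under both hormones against its placebo signals of 27.4 and 46.7 (2.04 ± 0.88, limma adjusted p = 0.992). HNRNPU read 250.3 and 365 (1.89 ± 0.85), at least 1.92-fold above the placebo bound. PRPF3 read 183 and 156 (1.30 ± 0.89). PRPF38A and PRPF3 were under the floor on estrogen with progesterone array 2, and no bound is given for them. In all 3 genes both values with hormones lay above both placebo values, as they did in the estrogen group. These comparisons share the placebo arrays.

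HNRNPM read 172 and 366 under both hormones, below its placebo signals (-1.38 ± 0.83), while its other probe set had a difference of 1.84. PRPF39, a U1-associated factor, read 224 and 260.3 under placebo and 56.5 and 76.4 under both hormones (-1.33 ± 0.82). The floor of the second of these arrays, 283, was above both placebo signals, so no bound is given. PRPF40B, another U1-associated factor, read 749.9 and 362 under placebo, 182 and 287 under estrogen, and 154 and 345 under both hormones (-1.29 ± 0.87). These 3 genes were lower on both hormone arrays than on both placebo arrays. SRSF6 read 725 and 1000 under placebo, 597 and 2303 under estrogen, and 735 and 436 under both hormones (-1.06 ± 0.88). Here the normalized groups did not overlap although the raw signals did.

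SRSF5 had the lowest difference, -2.38 ± 1.29 (limma adjusted p = 0.992), and it rested on 1 array. Its signals under both hormones were 1029 and 34.6, and without estrogen with progesterone array 2 the difference was -0.13. Other SRSF5 probe sets gave differences of 1.96 and -0.69. The same array set the sign for several genes of the core machinery. Without it the difference between both hormones and placebo was 1.13 in place of -1.40 for U2AF1, 0.48 in place of -1.27 for SNRPN, 0.44 in place of -1.08 for SNRPB, 1.02 in place of -0.76 for HNRNPK and 0.02 in place of -1.49 for SF3A1.

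Adding progesterone to estrogen was compared directly as both hormones minus estrogen. Here 42 of 49 genes had a log2 difference below 0, and 7 above it (14.3%, against 34% of all genes). The member median was -0.84 against -0.44 for all genes. All 10 PRPF and all 7 SR protein genes were below 0, as were 7 of 8 Sm and snRNP genes (median -1.43), both U2AF genes, 12 of 15 hnRNP genes and 4 of 7 SF3A and SF3B genes. With limma no member passed the test (0% of all probe sets, of which 1.76% had an unadjusted p under 0.05), and the smallest adjusted p was 0.799. At an unadjusted p under 0.05 limma gave 1 member gene lower (0.225% of all genes) and 0 higher (0.481%). The groups did not overlap, the treated arrays lower, for 15 members (17.9% of all genes) and, the treated arrays higher, for 4 (13.5%). Without estrogen with progesterone array 2 the member median was -0.01, against 0.05 for all genes, with 23 members above 0 (46.9%, against 55.2%). Family medians then lay between -0.26 and 0.19. Without array 1 of that group the median was -1.44, against -0.88 for all genes. In that fit the lone array was assumed to vary like the other groups.

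PRPF6 read 439 and 876 under estrogen and 242 and 19.5 under both hormones (-2.63 ± 1.17, limma adjusted p = 0.799). U2AF1 read 1880 and 1641 under estrogen and 1508 and 28.3 under both hormones (-2.69 ± 1.39). HNRNPDL, a relative of HNRNPD, read 1013 and 1571 under estrogen and 806 and 33.5 under both hormones (-2.59 ± 1.43), and its 4 tested probe sets spanned -2.59 to -0.93. In each of these genes both-hormone array 2 was far below array 1. Array 1 was itself below both estrogen arrays in each of them. Without array 2 the differences were -0.89 for PRPF6, -0.15 for U2AF1 and -0.44 for HNRNPDL.

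SNRPB, SNRPB2, SNRPD3 and SRSF4 were also lower on array 2 than on array 1. SNRPB read 248 and 37.0 under both hormones (-1.95 ± 1.11), SNRPB2 690 and 132 (-1.53 ± 1.04) and SNRPD3 203 and 64.9 (-1.34 ± 0.94). SRSF4 read 1037 and 187 (-1.55 ± 1.01). SF3B3 went the other way, with 228 and 309 under estrogen and 439 and 1332 under both hormones (2.21 ± 1.12, limma adjusted p = 0.799). Its other tested probe set had a difference of -0.62. Without estrogen with progesterone array 2 the difference of the first probe set was 0.53. On their brightest probe sets SF3B2 (1.03) and SF3A3 (0.80) were also above 0 without overlap, and all 3 genes had their highest value on that array. Other tested probe sets reached -1.73 for SF3B2 and -1.40 for SF3A3. HNRNPC read 73.2 and 124 under both hormones (-1.13 ± 1.06). Both values were under the floor.

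Arrays of like signal were then set against each other. On the high-signal arrays, both-hormone array 1 differed from the estrogen mean by -0.96 (HNRNPC) to 0.53 (SF3B3) on the log2 scale, with a member median of -0.01. All 49 members lay within 1 log2 unit, against 95.5% of all genes. On the low-signal arrays, both-hormone array 2 differed from the placebo mean by -4.64 (SRSF5) to 2.02 (HNRNPU), with a median of -1.06, and 20 of 49 members lay within 1 log2 unit (40.8%, against 43.4% of all genes). The median absolute gap between the arrays of a group, over the members, was 0.27 under estrogen, 0.84 under placebo and 1.64 under both hormones. These values have 1 array on one side and no test.

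**Figure D4:**
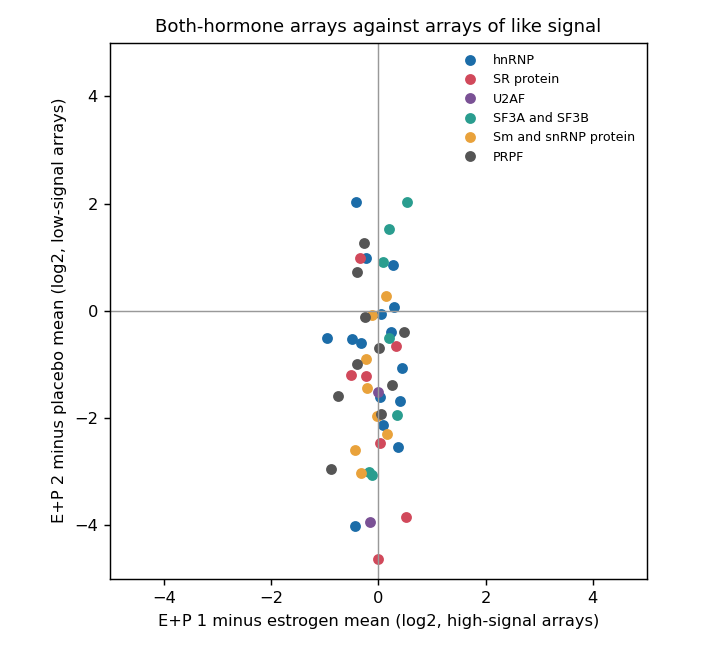
Log2 difference of estrogen with progesterone array 1 from the estrogen mean (horizontal axis, high-signal arrays) against that of array 2 from the placebo mean (vertical axis, low-signal arrays), for the 49 splicing factor genes coloured by family. The points span -0.96 to 0.53 across and -4.64 to 2.02 upward.

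The arrays were also compared by correlations of the normalized values over the 49 genes, which are not independent of each other. Pearson's r was 0.921 between the estrogen arrays, 0.971 and 0.901 between them and estrogen with progesterone array 1, and 0.723 between the placebo arrays. Between placebo and these 3 high-signal arrays it was 0.573 to 0.759, so the placebo arrays were about as close to them as to each other. Between the both-hormone arrays it was 0.274. Over all 26383 tested probe sets, which include unnamed ones and several of some genes, the same values were 0.862, 0.913, 0.842, 0.518 and 0.000477. Both-hormone array 2 had an r of 0.388 and 0.429 with the placebo arrays and of 0.198 and 0.193 with the estrogen arrays over the 49 genes. The correlation is a description of shared probe brightness and array signal and was given no test.

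Probe sets of the same gene often differed in sign. For estrogen minus placebo, 28 genes had 2 or more tested probe sets; 16 of them had differences of 1 sign and 12 of both. Between both hormones and placebo 10 had 1 sign and 18 both. Between both hormones and estrogen the split was again 16 and 12. Over all 97 probe sets, which count some genes more than once, 73 were above 0 for estrogen minus placebo (median 0.79, against 0.17 for all tested probe sets), 50 for both hormones minus placebo (median 0.09) and 13 for both hormones minus estrogen (median -0.70). In HNRNPD the brightest probe set gave 0.30 for estrogen minus placebo and another gave 3.57 (at least 3.45-fold).

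**Figure D5:**
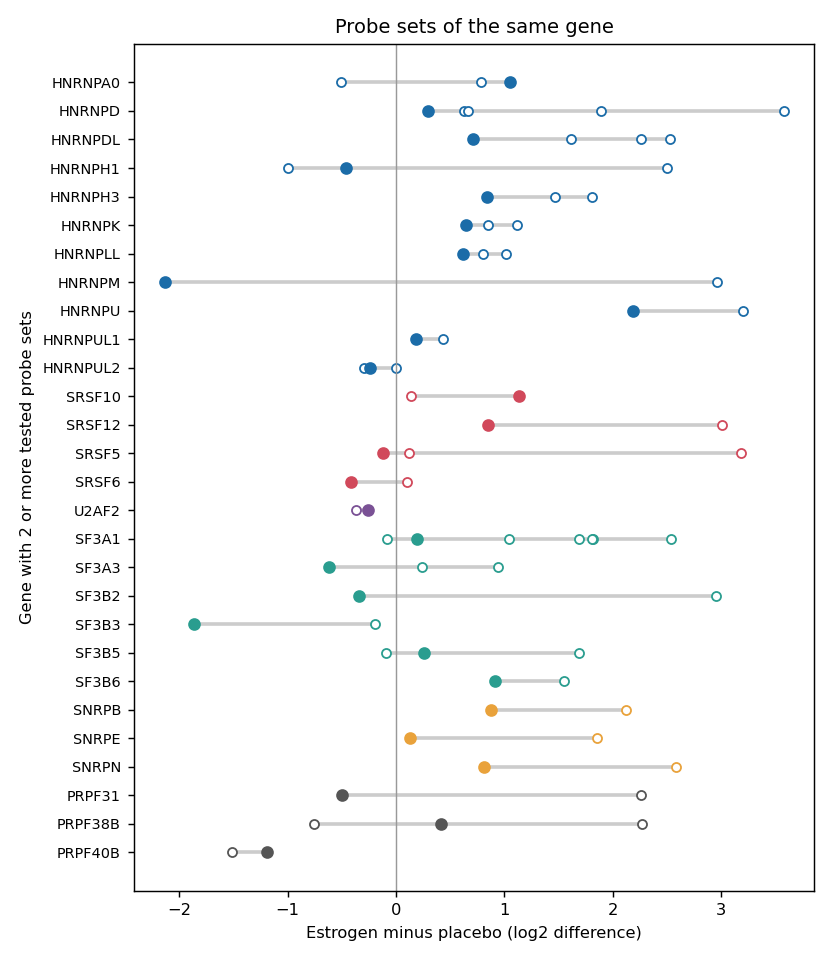
Estrogen minus placebo log2 difference of every tested probe set for the 28 splicing factor genes that have 2 or more; filled points are the probe set of highest mean, open points the others, and colours the families. In 12 genes the points lie on both sides of 0, and in HNRNPM they lie at -2.14 and 2.96.

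Other genes of RNA splicing, taken from a list of 133 kinases, helicases, LSM proteins, exon junction proteins and tissue-specific splicing regulators, gave 82 tested genes. With limma no gene of the list passed the test in any comparison, and at an unadjusted p under 0.05 the list had 3 genes higher and 2 lower between estrogen and placebo (3.68% and 1.24% of all genes), 0 and 3 between both hormones and placebo (1.34% and 1.04%), and none between both hormones and estrogen. Above 0 were 49 of the 82 genes for estrogen minus placebo (59.8% against 60.6% of all genes, median 0.20), 30 for both hormones minus placebo (36.6% against 46.2%, median -0.39) and 18 for both hormones minus estrogen (22.0% against 34%, median -0.55). SYF2, a protein of the catalytic spliceosome, read 41.7 and 30.9 under placebo, 403 and 207 under estrogen and 367 and 39.9 under both hormones. Its estrogen minus placebo difference was 3.03 ± 1.11, at least 1.86-fold. LSM5, a subunit of the LSM ring on U6, went the other way. It read 266 and 455 under placebo, 24.8 and 39.7 under estrogen and 55.2 and 240.3 under both hormones. Its estrogen minus placebo difference was -2.29 ± 0.87, at least 4.05-fold lower under estrogen. The floors of these arrays differed, at 216 and 221 for placebo and 30.0 and 51.6 for estrogen. The part of background in this bound was not tested. ZRSR2, the minor-intron relative of U2AF1, had a difference of 2.44 ± 0.92 (at least 1.89-fold), and SRPK2, a kinase of SR proteins, one of 1.91 ± 0.85 (at least 2.37-fold).

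Of the genes named for both hormones, SF1, which binds the branch point before the U2 snRNP arrives, read 939 and 952 under placebo and 717 and 109 under both hormones (-2.56 ± 1.04). ALYREF, an mRNA export adaptor, read 779 and 702 under placebo, 189 and 304 under estrogen and 295 and 263 under both hormones (-2.00 ± 0.82). It was lower on both arrays of both hormone groups than on both placebo arrays. RBM5 (-2.60 ± 1.19) and CASC3, an exon junction protein (-2.95 ± 1.23), were lowest on array 2, at signals of 48.2 and 55.4. Their normalized values on array 1 also lay below both placebo values. Against estrogen, CASC3 (-2.70 ± 1.23), CRNKL1 (-1.92 ± 0.97) and the SR protein kinase CLK1 (-1.64 ± 0.96) had differences below 0, and KHDRBS2, a STAR-family RNA-binding protein, had one of 1.99 ± 1.15. Signals of CRNKL1 were 1878 and 3524 under estrogen and 1266 and 262 under both hormones, those of CLK1 1259 and 1742 against 922 and 211, and those of KHDRBS2 43.6 and 87.9 against 93.7 and 740.5. These values also rested on estrogen with progesterone array 2. Without it the difference from estrogen was -0.66 for CASC3, -0.82 for CRNKL1, -0.49 for CLK1 and 0.21 for KHDRBS2, and that from placebo was -1.13 for SF1, -0.69 for RBM5 and -0.91 for CASC3.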

How the data were processed

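The values were microarray intensities, 1 column per array in the deposited value table. Per the labels' protocols, total RNA of laser-captured cells was extracted with a microkit and labelled with biotin; the software that summarized probes to intensity values, its scaling and the genome build are named in no source used here. The authors' deposited intensities were on a linear scale and were used as they stand. Gene symbols came from the platform annotation, which can be old; 24956 probe sets had 1 symbol, 361 several and 27449 none, and 24616 of the first (121 of the 122 members) matched the gene table, through which older symbols were updated.

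The 99 control probe sets were left out, leaving 52766. Signals were transformed to log2(signal + 16), which understates the change of low genes, and quantile normalized. The 26383 probe sets in the upper 50% by mean were fitted in R 4.3.3 with limma 3.58.1 (lmFit and eBayes) over all 6 arrays, with 3 residual degrees of freedom, and p-values were adjusted by Benjamini-Hochberg over all tested probe sets at a threshold of 0.05. Errors are standard errors of the log2 difference; their median was 0.95. The scripts were tested on simulated data. An exact permutation test of 2 arrays against 2 cannot go below p = 0.333, so it was not used. The number of arrays limits the precision. Nothing in the labels beyond the titles says how the replicates were taken, and p-values measure the spread between these arrays.

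Named genes were, per comparison, up to 8 members without overlap between groups and with a log2 difference of at least 1, ordered by p, then a list of well-known members, then up to 4 genes of the other splicing list. Several remaining members are named with their differences so that all 49 are accounted for; SRSF9, SF3B2, SF3A3 and the HNRNPD probe set were singled out after their values were seen. The members and lists were chosen with earlier results of these data known. Alternatives were the offset, the normalization, the filter, the choice of probe set, the prior, array weights, the signal class, the replicate block and leaving out each array.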

Additional observations from a re-analysis of the deposited data

How the results depend on the processing

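Under offsets of 1 and 64, no filter, the trended prior and a fit of only the 2 groups compared, no member was called and the medians moved by less than their spread. Array weights called 434 of the 26383 tested probe sets for estrogen minus placebo, 288 higher and 146 lower. Of the 49 member genes 1 was called, PRPF38A (3.09 ± 0.70, limma adjusted p = 0.0416). The cause was not tested. Scaling arrays to their median moved the all-gene medians to 1.49, 0.33 and -1.10 for estrogen minus placebo, both hormones minus placebo and both hormones minus estrogen; the member medians became 2.08, 0.36 and -1.60, with 31 members above 0 in the second comparison and 3 in the third. The 75th percentile filter left 37 members, 12 of them above 0 in the second. With a covariate for high or low array signal the member medians were -0.87, -1.06 and -0.012, against -0.50, -0.45 and 0.049 for all genes. Above 0 were 13, 11 and 23 members (26.5%, 22.4% and 46.9%, against 38.0%, 39.0% and 55.2% of all genes). This covariate leaves single arrays to carry each comparison.

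Leaving out 1 array moved the estrogen minus placebo median between 0.12 and 0.66 (28 to 36 members above 0), the both hormones minus placebo median between -1.06 and 0.43 (11 to 34) and the both hormones minus estrogen median between -1.44 and -0.012 (5 to 23). In the last comparison it gave 0 to 4200 called probe sets and 0 to 13 called members. All of those calls came without estrogen with progesterone array 1, where 1470 probe sets were higher and 2730 lower.

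The 64 differences of named genes gave 687 values under the other settings, of which 23 reversed. With the signal class, estrogen minus placebo became 1.49 for SF3B3, -0.65 for SNRPD3, -0.97 for SRSF4, -0.11 for HNRNPA1, -2.91 for HNRNPK, -2.83 for SF3A1, -3.79 for U2AF1, -2.16 for SNRPB, -2.69 for SNRPN and -0.32 for SYF2. Both hormones minus placebo became -0.060 for HNRNPA1 and -0.12 for PRPF8, and both hormones minus estrogen 0.047 for HNRNPA1, 0.37 for HNRNPK and 0.047 for PRPF19. With no normalization, estrogen minus placebo became 0.52 for U2AF2 and 0.60 for PRPF19, and both hormones minus placebo 0.32 for HNRNPK. With median scaling the first became 1.77 for U2AF2 and 1.85 for PRPF19, and the second 0.77 for HNRNPK, 0.21 for U2AF2 and 0.19 for PRPF19.

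Without single arrays 13 of 384 values reversed. For estrogen minus placebo the ranges were -0.61 to 2.19 for HNRNPC and -0.63 to 0.12 for U2AF2. For both hormones minus placebo they were -1.74 to 1.06 for HNRNPC, -0.060 to 0.50 for HNRNPA1, -2.54 to 1.02 for HNRNPK, -3.004 to 0.019 for SF3A1, -3.94 to 1.13 for U2AF1, -2.59 to 0.44 for SNRPB, -3.02 to 0.48 for SNRPN and -0.12 to 0.51 for PRPF8. For both hormones minus estrogen they were -0.52 to 0.047 for HNRNPA1, -3.19 to 0.37 for HNRNPK and -1.74 to 0.047 for PRPF19.

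The titles give replicate numbers, but same-numbered arrays did not deviate together (r of -0.03, -0.06 and 0.08 over all tested probe sets). The replicate block called 0 probe sets in each comparison with limma, and 2072, 808 and 765 had an unadjusted p under 0.05, against 2065, 870 and 464 without it.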
